A study of Mus musculus with 6 samples.

Results

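Homologous recombination and Fanconi repair genes were followed in primary fat cells from the inguinal depot of the mouse, which lies under the skin, after an acute exposure to kynurenic acid. The set was a list of 32 genes, and 31 of them had a row in the deposited array table among 27365 genes tested. Each gene was read from the transcript cluster (the group of probes for a transcript) annotated as specific to it with the highest mean over the 6 arrays. Rad54b was not analysed here. The list was drawn up by function, with earlier results of these data known.

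The cells had been fully differentiated in culture before treatment. One group of 3 arrays came from cells given 50 µM kynurenic acid for 12 h, and the other 3 arrays came from cells given PBS, the vehicle control, for the same 12 h. No strain, age, sex or genotype is stated in the labels, and the replicates are called technical. Separate cultures or animals are not mentioned, so the p-values reflect the spread among 6 arrays, and that spread may be technical.

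Homologous recombination repairs DNA breaks by copying the intact sister chromatid, and it is used mainly in cells that are replicating or have replicated their DNA. Broken ends are sensed by the Mre11, Rad50 and Nbn complex and the kinases Atm and Atr, and cut back by nucleases, and Brca1, Palb2 and Brca2 then prepare the exposed strand for pairing with the sister. The Fanconi anaemia pathway unhooks crosslinks between DNA strands and feeds the resulting breaks into the same route. Mature adipocytes rarely divide, and many of these genes are known to be transcribed most in dividing cells.

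The arrays were Affymetrix MoGene 2.0 ST, and values are log2 values from RMA, which equalizes the arrays at the level of probes before the clusters are summarized. Array medians lay between 3.93 and 3.98 over all 41345 clusters. Of the 9 adipocyte markers measured, all were above background on every array, with Fabp4 at 12.54 and Adipoq at 9.64 log2 with PBS. The defining markers of the labelled cell type were thus present. Markers of other cell types were above background too, with the macrophage markers Lyz2 at 10.58 and Cd68 at 9.77 log2 with PBS. Of the preadipocyte markers, Pdgfra read 10.01 with PBS, while Dpp4 read at background. The adipocyte markers therefore do not show that adipocytes were the only cells. The 23 antigenomic control probe sets, which match no mouse sequence, had means of 3.76, 3.58 and 3.75 with PBS and of 3.88, 3.76 and 3.91 with kynurenic acid. Of the 31 genes, 20 stood above that mean on all 6 arrays, 7 stood at or below it on all 6 and 4 on some. In bulk RNA, fewer cells that carry a transcript and less of it per cell cannot be told apart.

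**Figure D1:**
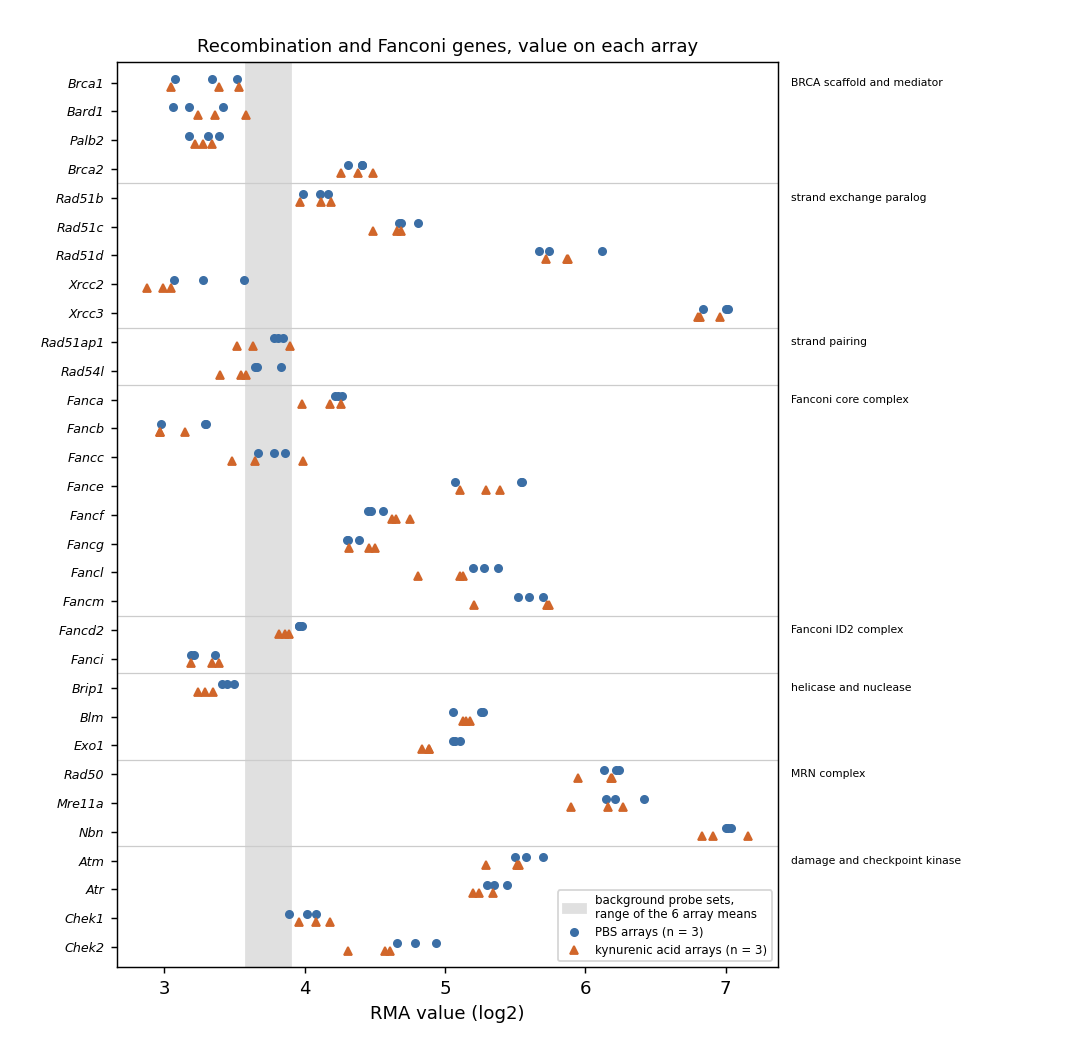
RMA values (log2) of the 31 genes on each array, with circles for the 3 PBS arrays and triangles for the 3 kynurenic acid arrays. The grey band spans the background means of the arrays, 3.58 to 3.91, and 7 genes lie at or below their array's background mean on all 6 arrays. Different probes read different genes, so heights of different genes are not comparable.

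No member passed the limma test at an adjusted p below 0.05, and no gene of the whole table did (0.0% of 27365). The smallest adjusted p was 0.475 among the members, for Exo1, and 0.435 over all genes. At an unadjusted limma p below 0.05, 5 of the 31 members were lower with kynurenic acid, Chek2, Exo1, Fancl, Rad54l and Xrcc2, against 5.0% of all genes. The 1 member higher at that level was Fancf, against 4.69% of all genes, so that 6 of 31 members stood past it in either direction, against 9.69%. The groups did not overlap for 7 lower members, where 7.58% of all genes did the same, and for 1 higher member, against 7.14%. Restricted to genes above background on all 6 arrays, which leaves out Rad54l and Xrcc2, the shares were closer. There 3 of 20 members were lower at the unadjusted limma level, against 7.11% of 15030 genes, and 1 was higher, against 3.92%. Lower without overlap were 3 of 20, against 10.9%.

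Most of the small differences lay below 0. Of the 31 members, 23 had a log2 change below 0, 7 above 0 and 1, Brca2, at 0, where 47.1% of all genes lay below 0. The median log2 change was -0.093 for the members and 0.0067 for all genes. Among genes above background on all 6 arrays, 15 of 20 members and 54.9% of 15030 genes were below 0, with medians of -0.092 and -0.017. The largest difference of any member was 1.26-fold, for Xrcc2, so 0 members reached 1.5-fold, against 0.135% of all genes. The 95% intervals of 30 members excluded a change of 1.5-fold in either direction, and that of Xrcc2, a gene at background, did not. For genes near background the array compresses differences, so those intervals describe array values and not RNA amounts.

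**Figure D2:**
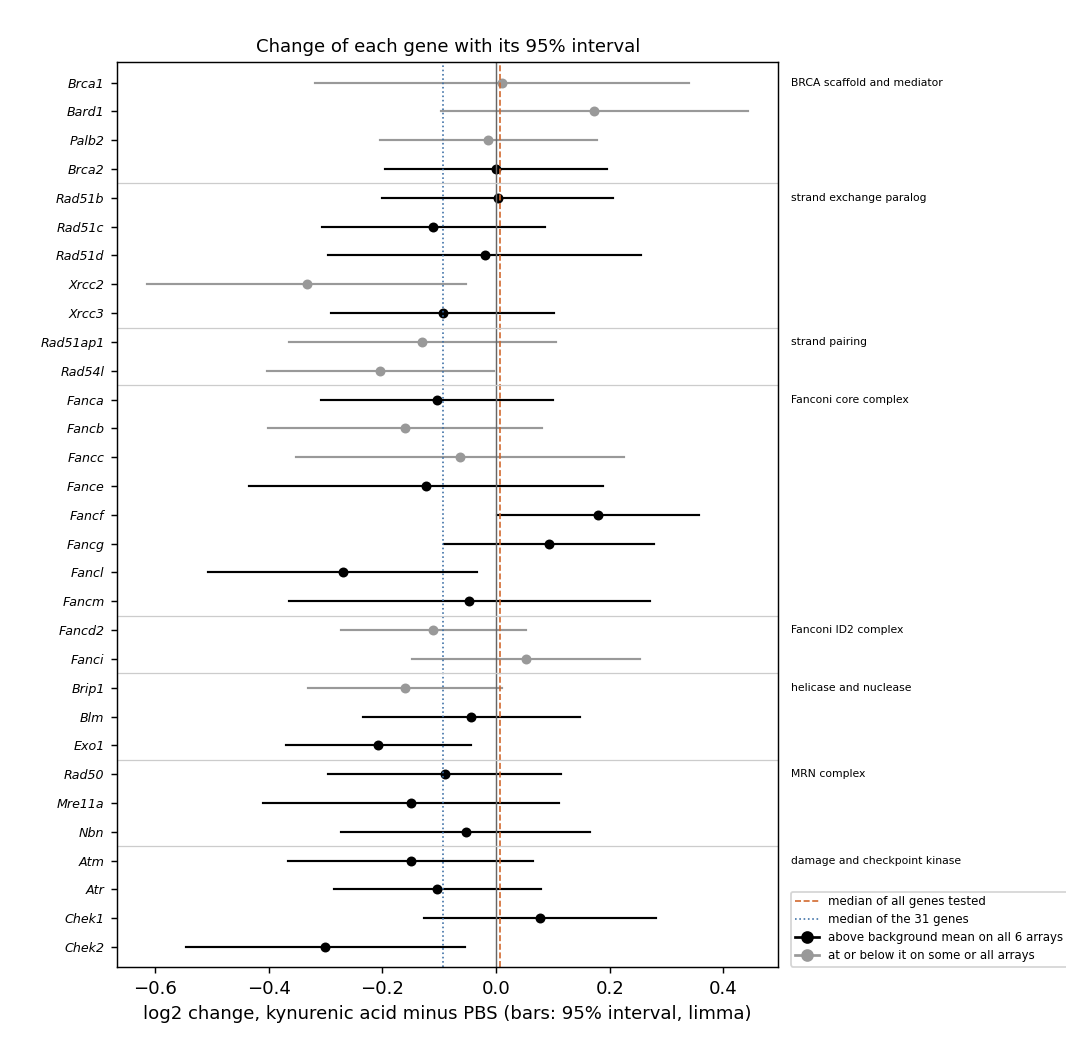
Log2 change (kynurenic acid minus PBS) of each of the 31 genes with its 95% interval from limma, black for genes above the background mean on all 6 arrays and grey for the others. The dotted line at -0.093 is the median of these genes and the dashed line at 0.0067 that of all genes tested, and 6 intervals do not cross 0.

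The kinases that signal damage came first in the order of the pathway. Chek2, the checkpoint kinase switched on by Atm, measured 4.66, 4.79 and 4.94 log2 with PBS and 4.31, 4.57 and 4.61 with kynurenic acid. All 3 kynurenic acid arrays lay below all 3 PBS arrays, by a gap of 0.05 between the nearest values. The log2 change was -0.30 (SE 0.11), a fold of 1.23 downward, with an interval from -0.55 to -0.055 and adjusted p = 0.480. Chek2 lies on chromosome 5 of mm10 at 110840017 to 110874133 and was read by 25 probes.

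Atm, the kinase that responds to broken ends, measured 5.70, 5.50 and 5.58 on the PBS arrays and 5.51, 5.53 and 5.29 on the arrays of treated cells. Its groups overlapped, with kynurenic acid array 3 lowest, and the log2 change was -0.15 (interval from -0.37 to 0.065). Atr, the kinase that responds to exposed single strands, overlapped as well at -0.10 (interval from -0.29 to 0.079). A further Atr cluster inside the gene, of 21 probes at 95934613 to 95934790 on chromosome 9, read at background on all 6 arrays and gave 0.05. Chek1, the kinase acting after Atr, measured 4.08, 4.02 and 3.89 on the PBS arrays and 4.18, 4.08 and 3.96 on the arrays of treated cells. It was the member of this group above 0, at 0.077 (interval from -0.13 to 0.28), with groups that overlapped.

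The end-sensing complex had all 3 members below 0, and the groups overlapped for each. Mre11a, its nuclease, measured 6.15, 6.42 and 6.21 on the PBS arrays and 6.27, 5.90 and 6.16 on the arrays of treated cells, a log2 change of -0.15 (SE 0.12). That value rested on the arrays numbered 2, since without both of them it was 0.035. Rad50, its ATPase, had -0.09 and Nbn, the subunit that recruits Atm, had -0.053. Their adjusted p-values were 0.682 for Mre11a, 0.762 for Rad50 and 0.878 for Nbn.

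Exo1, the exonuclease that extends single-stranded tails from broken ends, had values close together within each group. It measured 5.06, 5.07 and 5.11 on the PBS arrays and 4.89, 4.84 and 4.89 on the arrays of treated cells. The groups were apart by 0.17, wider than either group's own range. Its log2 change was -0.21 (SE 0.072, interval from -0.37 to -0.044), a fold of 1.15 downward. The adjusted limma p was 0.475, and its unadjusted p ranked 1060 among the 27365 genes. In the authors' deposited table, Exo1 has a t-test p of 0.000788 and a q of 0.518. Exo1 lies on chromosome 1 at 175880778 to 175911396 and was read by 27 probes.

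Brip1, a helicase that binds Brca1, measured 3.45, 3.50 and 3.41 on the PBS arrays and 3.24, 3.35 and 3.29 on the arrays of treated cells. Its groups did not overlap, but all 6 values lay below the background mean of their array, so neither a level nor the size of the change of -0.16 was measured above background. Brip1 is named here for its lack of overlap, after its values were seen. Blm, the helicase mutated in human Bloom syndrome, had overlapping groups and -0.043 (interval from -0.23 to 0.15).

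The scaffold and mediator genes had groups that overlapped, all 4 of them. Brca2, which acts on the exposed single strand before pairing, measured 4.41, 4.31 and 4.41 on the PBS arrays and 4.49, 4.26 and 4.38 on the arrays of treated cells, with equal means of 4.38. Its interval ran from -0.19 to 0.19. Brca1, the ubiquitin ligase subunit that starts the recombination route, Bard1, its partner, and Palb2, which bridges Brca1 to Brca2, read below background on all 6 arrays. Bard1 measured 3.06, 3.42 and 3.18 on the PBS arrays and 3.24, 3.58 and 3.36 on the arrays of treated cells. The change of 0.17 (interval from -0.097 to 0.44) came with groups that overlapped.

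Among Xrcc2, Xrcc3, Rad51b, Rad51c and Rad51d, related proteins that assist strand exchange, the difference with the smallest p was in a gene at background. Xrcc2 measured 3.28, 3.07 and 3.57 on the PBS arrays and 2.99, 3.05 and 2.88 on the arrays of treated cells. The groups did not overlap, by a gap of 0.02, and the log2 change of -0.33 was -0.20 without PBS replicate 3. Xrcc3 had -0.093, Rad51c -0.11, Rad51d -0.02 and Rad51b 0.0033, each above background on all 6 arrays and each with groups that overlapped. Rad51c with its interval from -0.31 to 0.086 and Xrcc3 with -0.29 to 0.10 were the most negative of these 4.

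Both measured genes that act in strand pairing itself stood near background. Rad54l, a translocase that opens the donor DNA, measured 3.83, 3.65 and 3.66 on the PBS arrays and 3.55, 3.40 and 3.58 on the arrays of treated cells. No fold is given, because all 3 kynurenic acid arrays and 1 PBS array lay at or below background. Rad51ap1, which stimulates strand pairing, measured 3.81, 3.85 and 3.78 on the PBS arrays and 3.90, 3.52 and 3.63 on the arrays of treated cells. Its kynurenic acid array 1 was the highest of all 6 and its array 2 the lowest, and the change of -0.13 had an interval from -0.36 to 0.10.

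Genes of the Fanconi core complex, the ubiquitin ligase assembly at crosslinks, differed in sign. Fancl, its catalytic subunit, measured 5.28, 5.38 and 5.20 on the PBS arrays and 5.11, 5.13 and 4.81 on the arrays of treated cells. The groups did not overlap, and kynurenic acid array 3 was far below the other two. The log2 change was -0.27 (SE 0.10, adjusted p = 0.495), a fold of 1.21 downward, and was -0.17 without kynurenic acid replicate 3. Fancl was read by 35 probes on chromosome 11 at 26386135 to 26471876.

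Fancf, an adaptor subunit that the array reads with 24 probes on chromosome 7 at 51860577 to 51862267, measured 4.47, 4.45 and 4.56 on the PBS arrays and 4.62, 4.65 and 4.75 on the arrays of treated cells. All 3 kynurenic acid arrays were above all PBS arrays, by a gap of 0.06. Its log2 change was 0.18 (SE 0.079, interval from 0.0025 to 0.36, adjusted p = 0.513), a fold of 1.13 upward. Fancg, a subunit next to Fanca in the complex, measured 4.30, 4.31 and 4.39 on the PBS arrays and 4.5, 4.32 and 4.46 on the arrays of treated cells. Its change was 0.093 with groups that overlapped.

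The other core subunits had overlapping groups and log2 changes below 0. Fance measured 5.54, 5.07 and 5.55 on the PBS arrays and 5.29, 5.39 and 5.11 on the arrays of treated cells. PBS array 2 was the lowest of its 6 values, and the change of -0.12 was -0.28 without it. Fanca had -0.10, Fancm, the translocase that anchors the complex to DNA, -0.047, Fancc -0.063 and Fancb, which read below background throughout, -0.16.

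Fancd2, the protein that the core complex tags with ubiquitin, measured 3.96, 3.96 and 3.98 on the PBS arrays and 3.89, 3.86 and 3.82 on the arrays of treated cells. The groups did not overlap, and the SDs of 0.012 and 0.035 were among the smallest of the members. The log2 change was -0.11 (interval from -0.27 to 0.053, adjusted p = 0.634), and kynurenic acid array 3 lay below background. Fancd2 too is named for its lack of overlap after its values were seen. Fanci, its partner in the clamp on DNA, read below background on all 6 arrays at 3.25 and 3.31 log2 (means), with 0.053.

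**Figure D3:**
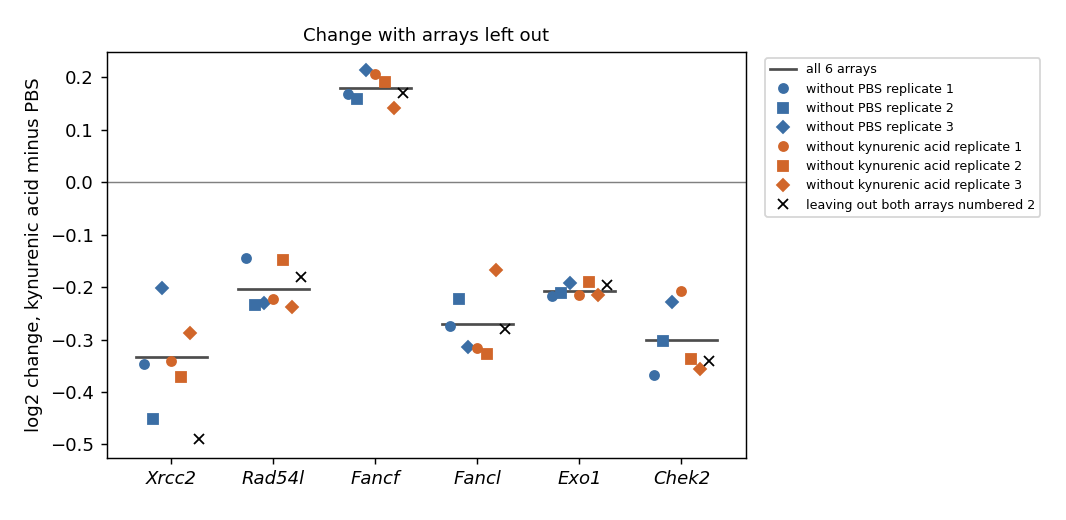
Log2 change (kynurenic acid minus PBS) of the 6 genes with an unadjusted limma p below 0.05, with all 6 arrays (line), with each array left out (symbols) and without both arrays numbered 2 (cross). The groups of all 6 genes did not overlap, so leaving out arrays could not change their sign. Exo1 stayed between -0.22 and -0.19 with single arrays left out. Xrcc2 ran from -0.45 to -0.20 in those and was -0.49 without both arrays numbered 2.

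The count of 5 lower members depended on single arrays. Leaving out PBS replicate 3 gave 2. Leaving out PBS replicate 1 gave 3, as did leaving out either replicate 2 or replicate 3 of the treated cells. The count was 4 when PBS replicate 2 was left out, and also when replicate 1 of the treated cells was. These counts held other members too, Fancb without PBS replicate 3, Fance without PBS replicate 2 and Rad51ap1 without replicate 1 of the treated cells. The median change of the members was -0.048 without kynurenic acid replicate 3, -0.057 without kynurenic acid replicate 2 and -0.13 without kynurenic acid replicate 1. Mean deviations of the 31 genes from their 6-array means were 0.032, 0.037 and 0.049 on the PBS arrays and -0.0052, -0.034 and -0.079 on the kynurenic acid arrays. The rest of the pathway and the dividing-cell genes were set beside them on the same scale.

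Other genes of recombination and crosslink repair were also mostly below 0. Of 59 listed, 57 were measured and 0 passed limma. Below 0 were 43 of 57, against 47.1% of all genes, and the median log2 change was -0.11. At an unadjusted limma p below 0.05, 8 were lower, against 5.0% of all genes, and 2 higher, against 4.69%. The lower genes included Mcm8, a helicase that acts with Mcm9, with -0.29, Rbbp8, which starts the trimming of broken ends together with Mre11, with -0.29 and Rpa1, the large subunit that coats single strands, with -0.26. Also lower were Fam175a, a scaffold of the Brca1-A complex, with -0.24, Rad9a, a checkpoint clamp subunit, with -0.23, Wee1, a kinase that delays mitosis, with -0.24, Trp53bp1, which limits trimming of ends, with -0.25, and Wdr48, the cofactor of the enzyme that removes ubiquitin from Fancd2, with -0.21. Higher were Recql4, a RecQ helicase like Blm, with 0.26, and Atrip, the partner of Atr, with 0.19. Adjusted p-values of these 10 genes lay between 0.472 for Mcm8 and 0.511 for Wdr48.

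Genes of DNA replication and mitosis were below 0 in most cases as well. Of 23 proliferation genes measured, 0 passed limma, an unadjusted p below 0.05 was reached by 12, each of them lower, 19 were below 0 and the median was -0.22. The mean deviations of that list were 0.14, 0.033 and 0.10 on the PBS arrays and -0.042, -0.14 and -0.092 on the kynurenic acid arrays. The summed log2 level of the 23 genes ranged from 124.67 to 127.15 with PBS and from 120.63 to 122.94 with kynurenic acid. The 2 largest changes were -0.53 for Kif11 and -0.39 for Top2a. This list was lower with kynurenic acid, as the repair genes were. Its lowest mean was on kynurenic acid array 2, and that of the repair genes was on array 3. The part of this list in the values of the repair genes was not tested.

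**Figure D4:**
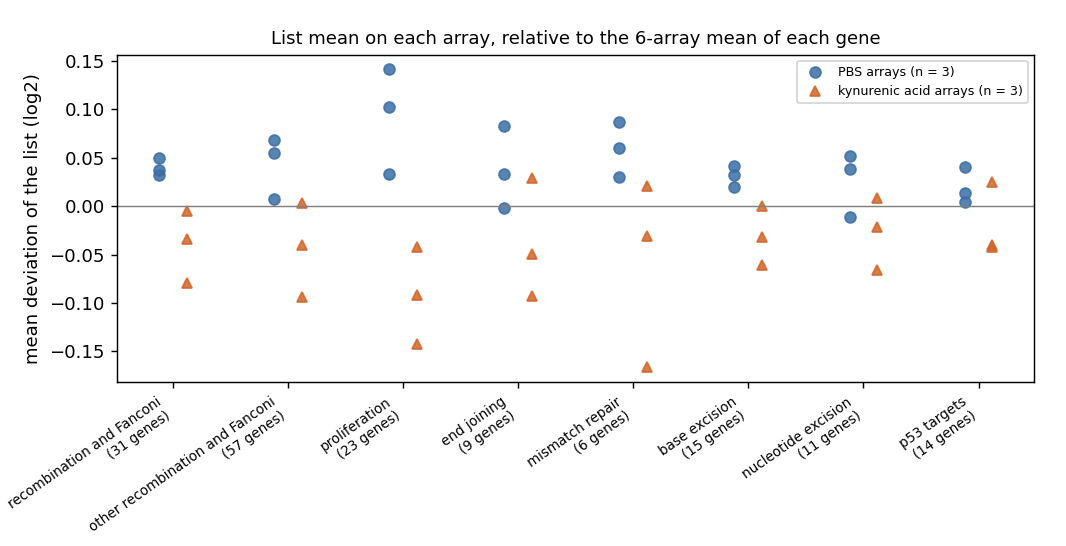
Mean deviation (log2) of each gene list on each array from the 6-array mean of its genes, with circles for the 3 PBS and triangles for the 3 kynurenic acid arrays. The 31 recombination and Fanconi genes run from 0.032 to 0.049 with PBS and from -0.079 to -0.0052 with kynurenic acid, and the proliferation list spans a wider range.

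Markers of cells that such a culture can hold were measured beside these values. Preadipocyte markers, of which 4 of 7 were below 0, had a median of -0.017, and their summed log2 level ranged from 40.79 to 40.88 with PBS and from 39.99 to 41.05 with kynurenic acid. For macrophage markers 6 of 7 were below 0, with a median of -0.16 and sums from 52.22 to 54.49 and from 51.95 to 53.63. Endothelial markers had 6 of 8 above 0 and a median of 0.13, with sums from 30.93 to 31.73 and from 32.01 to 32.64 that did not overlap. Among them Cdh5, the cadherin of endothelial junctions, measured 4.99, 5.09 and 5.17 on the PBS arrays and 5.69, 5.55 and 5.54 on the arrays of treated cells. All treated arrays were higher by a gap of 0.37, and its log2 change of 0.51 (interval from 0.32 to 0.70, limma adjusted p = 0.472) was larger than that of any repair gene among the members. In rank by p over all genes tested, Cdh5 was number 10. Only 2 of the 8 endothelial markers, Cdh5 and Emcn, had groups that did not overlap. Emcn read at background on all 6 arrays and Kdr on all 3 PBS arrays, and Esam stood above it on 1 array of each group. The endothelial sums include Cdh5, so their lack of overlap does not show a rise of the list as a whole. No other marker in these 5 lists had an unadjusted p below 0.05. Lymphocyte markers had a median of 0.0083 with 4 of 8 above 0 and sums from 28.21 to 29.27 and from 28.81 to 29.16, and Cd79a and Ms4a1 read at background. All 9 adipocyte markers were below 0, with a median of -0.053. Their sums did not overlap, at 94.08 to 94.39 with PBS and 93.55 to 93.6 with kynurenic acid. These markers are bright, and the median of all genes kept by a filter at the 60th percentile of mean level was -0.04. The adipocyte median thus lay near that of bright genes and does not show a fall particular to these markers. The part of all these markers in the values of the repair genes was not tested.

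Sequence motifs were counted in the promoters, which the array values did not use, and no motif was in every member. RefSeq windows from 250 bases before to 50 after each start site (GRCm38.p6) were matched for 25 of the 31 genes. The E2F core was sought on both strands in 4 forms that differ in their middle. The form TTGGCGC was searched first and the form TTCCCGC second. A further search used TTGCCGC and the remaining one used the letters TTCGCGC in the same way. At least 1 of the forms was in 15 of 25 members (60%), against 10.9% of 27025 genes with a window and 13.7% of 17492 coding genes. CCAAT, the NF-Y box, was in 17 of 25 (68.0%), against 41.1% of all genes. The cell cycle element CHR, sought as TTTGAA and separately as TTTAAA, was in 3 (12.0%), against 30.6%. Median GC content was 58.0% in the members' windows, 52.8% in all and 56.3% in those of coding genes. The first E2F form, read on the opposite strand, can overlap a CCAAT box, as it does in Fancf. A match describes letters in a window and says nothing about binding.

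The E2F core was found on both sides of 0. It was in the windows of Chek2, Brip1 and Atm and also in those of Fancf, Chek1 and Bard1. It was in neither Fancl nor Rad54l, both lower at an unadjusted p below 0.05. Xrcc2 and Exo1 had no window among the matched genes. The 250 bases before the start are shown for the 4 members at that level that had a window. Where a gene had several RefSeq windows, as Rad54l did, a match in any of them counted above, and only the first is shown. The bases are read 5′ to 3′ on the gene's strand, with matches to any of these motifs in capitals.
Chek2 (chr5:110839733-110839982, plus strand): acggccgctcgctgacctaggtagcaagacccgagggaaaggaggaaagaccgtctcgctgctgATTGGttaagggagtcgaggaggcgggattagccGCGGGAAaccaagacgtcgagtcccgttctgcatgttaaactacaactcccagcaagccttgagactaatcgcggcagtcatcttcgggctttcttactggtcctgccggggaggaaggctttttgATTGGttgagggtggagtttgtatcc
Fancl (chr11:26386834-26387083, plus strand): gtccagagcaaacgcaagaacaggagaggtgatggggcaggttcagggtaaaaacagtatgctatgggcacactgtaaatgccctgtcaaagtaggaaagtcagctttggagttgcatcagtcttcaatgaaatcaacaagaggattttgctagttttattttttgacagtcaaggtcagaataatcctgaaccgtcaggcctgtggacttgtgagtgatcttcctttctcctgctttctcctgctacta
Fancf (chr7:51862268-51862517, minus strand): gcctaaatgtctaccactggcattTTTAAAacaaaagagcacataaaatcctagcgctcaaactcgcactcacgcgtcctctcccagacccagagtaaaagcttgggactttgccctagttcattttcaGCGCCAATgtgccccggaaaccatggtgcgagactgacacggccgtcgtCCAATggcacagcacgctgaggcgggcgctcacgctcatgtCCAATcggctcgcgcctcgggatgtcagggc
Rad54l (chr4:116123691-116123940, minus strand): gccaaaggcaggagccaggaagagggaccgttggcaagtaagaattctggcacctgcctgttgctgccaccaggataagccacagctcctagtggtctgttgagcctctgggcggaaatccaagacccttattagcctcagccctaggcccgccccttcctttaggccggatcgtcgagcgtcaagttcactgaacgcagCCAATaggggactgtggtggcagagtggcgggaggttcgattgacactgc

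Chek2 held 1 E2F core and 2 CCAAT boxes in these bases, Fancf 1 E2F core, 3 CCAAT boxes and 1 CHR match, Rad54l 1 CCAAT box and Fancl 0 of any. The RefSeq start of Fancl lies 949 bases inside the 5′ end of its array cluster, so this window may not be the promoter of all transcripts the cluster reads. For Chek2 the distance was 34 bases and for Fancf and Rad54l 0.

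The genes lie on 12 chromosomes, with 6 of 31 on chromosome 11 (19.4%, against 7.85% of all genes tested). These 6 were Brca1, Brip1, Fancl, Rad50, Rad51c and Rad51d, and their log2 changes ran from -0.27 for Fancl to 0.01 for Brca1.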

How the data were processed

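Total RNA of primary inguinal fat cells was amplified to sense-strand DNA and labelled with biotin, per the labels' protocols. The authors deposited log2 values from RMA (background correction, quantile normalization, median polish), per the file headers, rounded to 2 decimals. The submitters' processing notes name Affymetrix Expression Console 1.41. The annotation is NetAffx build 34 on mm10, per the file headers. The authors' deposited table also holds mean linear intensity per group, a signed fold, a Student's t-test p-value and a q-value of unstated method. Both deposited tables held equal log2 values, with a largest difference of 0 over 41345 clusters. Quantile normalization can hide a change of most transcripts in 1 direction.

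Of the 27365 genes, 25614 were read from their brightest cluster annotated as specific (crosshyb_type 1) and 1751 from another cluster. Groups were compared by limma 3.58.1 in R 4.3.3 (lmFit and eBayes, two-sided, no covariates, no filter), fitted on all genes with Benjamini-Hochberg adjustment over all of them and a threshold of 0.05. The script was tested on simulated data. Background was the mean of the 23 antigenomic probe sets of each array. Precision is limited by the number of arrays: the 95% intervals of the members reached 0.16 to 0.33 log2 to either side. Same-numbered arrays had correlations of their deviations from the group means of 0.037, 0.065 and 0.093, so the numbers were not taken to pair the arrays.

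All members are accounted for. Values on every array are given for members at an unadjusted p below 0.05, the 8 largest changes above background in the higher group and the 4 largest upward changes, and from other lists the genes at an unadjusted p below 0.05 or the 2 largest changes. The members and lists were chosen with earlier results of these data known. Alternatives were the cluster per gene, array scaling, filters on dim genes, the variance prior, the replicate block, the methods' t-test and arrays left out.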

Additional observations from a re-analysis of the deposited data

How the results depend on the processing

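The limma count of genes called was 0 over all genes and among the members under all 16 alternatives, including 0 by the methods' t-test after adjustment, where 4 members had an unadjusted p below 0.05. At an unadjusted limma p below 0.05, the count of 5 lower members was 3 of 21 with a filter at the 40th percentile. It was 2 of 12 at the 60th. Those filters test fewer genes, and 7.37% and 10.7% of all genes kept were lower at that level. The methods' t-test gave 3 (Brip1, Exo1 and Fancd2, of which Exo1 alone is among the 5), against 4.06% of all genes. Without both arrays numbered 2 the count was 2 (Fance and Xrcc2), against 4.93%. With single arrays left out it ran from 2 to 4. It was 6, with Brip1 added, after median centring and after cyclic loess, and 4 with the intensity trend. The 1 higher member was 0 after median centring, after cyclic loess, at the 60th percentile, with the intensity trend, with the replicate block and without both arrays numbered 2, and 0 to 1 with single arrays left out. The replicate block left 5 lower members and a median change of -0.093 over all 31 members, and each array correlated best with its own number. Median centring moved the median change of the members to -0.12, and it ran from -0.13 to -0.048 with single arrays left out. That of the other recombination and Fanconi genes ran from -0.135 to -0.068. Centring also moved the median of all genes from 0.0067 to -0.017 and the split of genes at an unadjusted p below 0.05 from 5.0% lower and 4.69% higher to 6.65% and 3.22%. Of 225 values of the 15 members named by the rule or for groups that did not overlap, 224 kept their sign, and Mre11a turned to 0.035 without both arrays numbered 2. Many of these signs were fixed in advance, so the count is not a measure of stability. The cluster choice, filters, intensity trend, replicate block and t-test left the log2 changes of these members as they were. Groups that do not overlap cannot change sign when arrays are left out. With the 95th percentile of the background probe sets as background, 0 of the 20 members stayed above it on all 6 arrays. Where no other cause is named, the cause was not tested.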

Other observations

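Genes of other repair routes were measured on the same arrays, and limma called 0 of them over all genes. Of 9 genes that join broken ends without a template, 7 were below 0, against 47.1% of all genes, with a list median of -0.03. At an unadjusted limma p below 0.05, 2 of them were lower, against 5.0% of all genes. These were the ligase scaffold Xrcc4 at -0.30 and the polymerase gene Poll at -0.26. All 6 mismatch repair genes measured were below 0, with a median of -0.115. Base excision repair had a median of -0.043 over 15 genes, with the adenine glycosylase gene Mutyh at -0.24. Nucleotide excision repair had a median of -0.067 over 11 genes, with Xpa at -0.20 and Ercc5 at -0.17.

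Targets of p53, the transcription factor that the checkpoint kinases activate, gave 14 values with a median of -0.047, of which 8 were below 0. Sesn1 measured 6.29, 6.45 and 6.28 on the PBS arrays and 6.12, 5.87 and 6.22 on the arrays of treated cells, a log2 change of -0.27 at adjusted p = 0.496. Phlda3 had 0.15, with all kynurenic acid arrays above all PBS arrays.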
